A study of Rattus norvegicus with 6 samples.

Results

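Actin filaments and the proteins that move, cross-link and regulate them were followed in cells cultured from dorsal root ganglia of rats, which hold the cell bodies of sensory neurons together with glia and connective tissue. The genes were 40 named members of the actin cytoskeleton and contractile apparatus, taken as a named list of symbols, and 39 of them had a row among the 16551 genes of the mRNA table. Actc1, the cardiac muscle actin, is not analysed here. The 39 genes fell into 4 groups by role: 14 smooth muscle contractile genes, 5 of striated muscle, 18 of the general cytoskeleton, and the regulators Srf and Myocd. RNA was sequenced in 3 DM samples and 3 control samples of primary cells from rats whose strain, age and sex the labels do not give, taken after 48 h. The DM samples were taken as those in high-glucose medium (45 mmol/L), since the labels name only these groups. How much glucose the control medium held is not stated, and there was no osmotic control. The labels do not say whether the 3 samples of a group came from separate cultures or animals, so p-values reflect the spread among these samples alone, and that spread may be technical.

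Actin assembles into filaments that carry cell shape, adhesion and, with myosin, force. Every cell makes the cytoplasmic beta and gamma actins. Smooth muscle cells, pericytes and activated fibroblasts (myofibroblasts) add alpha and gamma smooth muscle actin, calponin, transgelin and smooth muscle myosin, whereas striated muscle uses skeletal and cardiac actins and troponin. Serum response factor (SRF) binds the CArG box, a short motif in the promoters of many of these genes. Its coactivators are myocardin, which is restricted to smooth muscle and heart, and the MRTF proteins, which respond to the amount of unpolymerised actin. Dorsal root ganglia hold smooth muscle and pericytes in their vessels and fibroblasts in their sheath.

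The mRNA table held between 28780612 and 33108451 reads per sample, worked back from the deposited log2 values. The 39 genes took 4.74%, 4.75% and 4.69% of these reads in the DM samples, against 6.34%, 6.33% and 6.42% in the control samples. The share was lower in each DM sample than in any control sample. Of the markers of sensory neurons, 16 of 16 had a row, with a summed level of 81.5 to 83.6 CPM (reads scaled to library size) in DM and of 108 to 113 CPM in control. The 13 measured fibroblast markers summed to between 65043 and 68941 CPM in DM and to between 74858 and 77976 CPM in control, so the RNA did not come from neurons alone. In such bulk RNA, fewer cells of a type and less RNA per cell cannot be told apart.

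Most of the actin genes were lower in DM. By limma with Benjamini-Hochberg adjustment over all genes (adjusted p under 0.05), 33 of the 39 were lower and 3 were higher, and 3 did not pass. Over all genes 50.5% were called, 25.5% lower and 24.9% higher. The median log2 fold change of the 39 was -0.43, beside 0.01 over all genes. All log2 fold changes here are DM minus control, with the moderated standard error (SE) of limma. It combines a gene's own spread over 3 samples a group with the spread typical of genes at its level. In the same 33 genes all 3 DM samples lay below all 3 control samples, as they did in 28.9% of all genes, and in the 3 that rose they lay above, as in 28.7% of all genes. Among the 1497 genes with a mean log2 CPM of at least 7, 51.4% were lower and 29.3% were higher, with a median of -0.07. A fall of at least 2-fold was seen in 5 of the 39, namely Acta2, Actg2, Myh11, Acta1 and Myh2, against 3.5% of all genes. With library totals alone in place of the deposited scaling, 67.6% of all calls were higher, against 49.4% as deposited, and the median was -0.318 over the 39 and 0.125 over all genes, with 29 of the 39 lower and 5 higher. After quantile normalization the median was -0.197 over the 39 and 0.008 over all genes, with 28 lower and 5 higher.

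**Figure D1:**
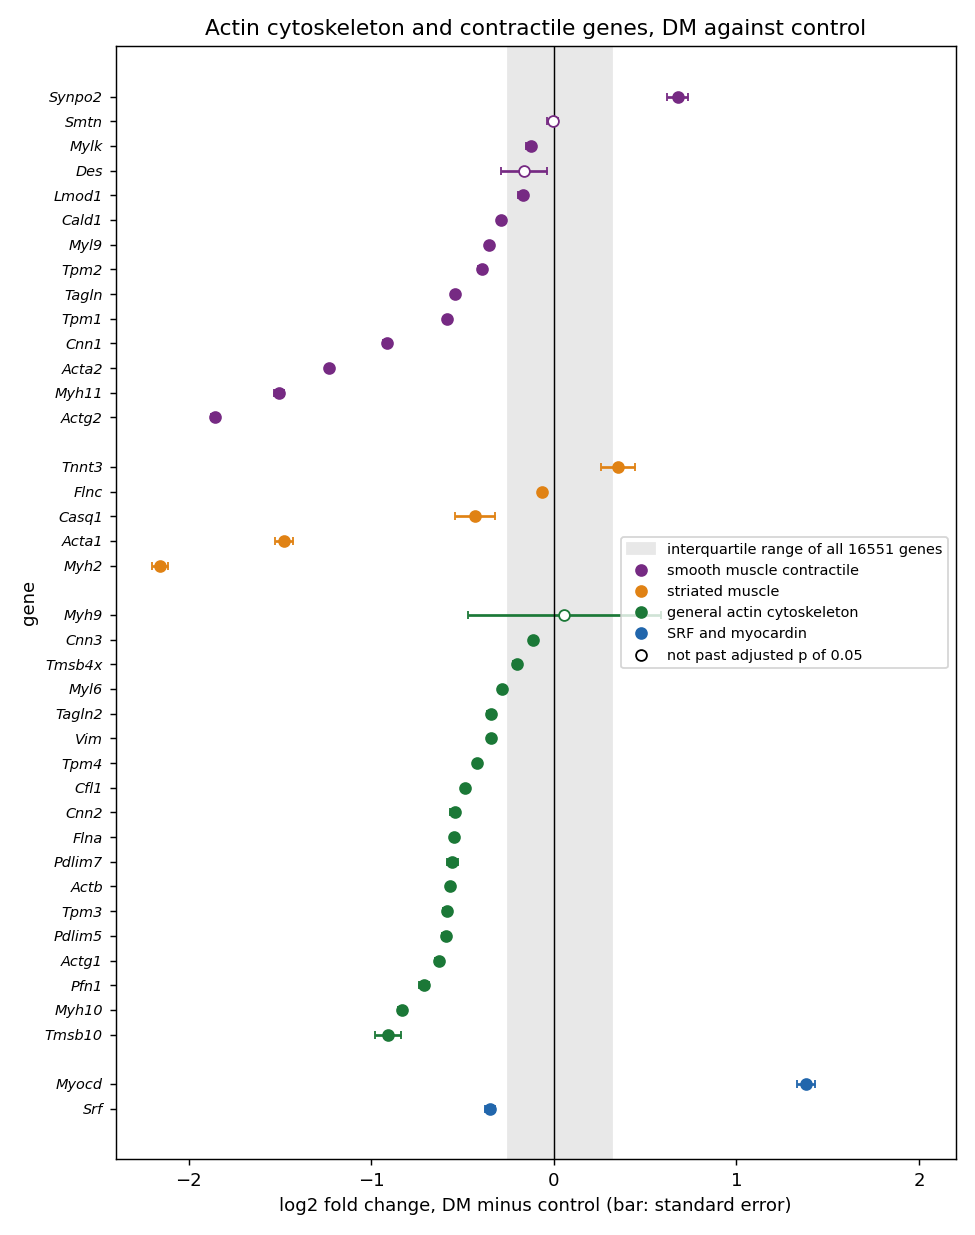
Log2 fold change (DM minus control) with its standard error for 39 genes in 4 groups, sorted within each group, with filled points for genes past an adjusted p of 0.05 and a grey band from the lower to the upper quartile of all 16551 genes. Actg2 and Myh2 lie farthest to the left, at -1.86 and -2.16, while Myocd lies farthest to the right at 1.38.

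The regulators went in opposite directions. Srf encodes the DNA-binding factor and had levels of 88.6, 89.5 and 89.2 CPM in DM, against 110.7, 115 and 114.5 CPM in control. It fell 1.27-fold (log2 fold change -0.35 ± 0.03, adjusted p = 1.59e-07). Myocd, the myocardin coactivator of the smooth muscle programme, had 54.0, 54.9 and 56.0 CPM in DM, against 21.9, 21.7 and 19.8 CPM in control. Each DM sample lay above every control sample, and the gene rose 2.60-fold (1.38 ± 0.05, adjusted p = 3.35e-11). Mkl1, which encodes the coactivator MRTF-A, rose slightly (0.17 ± 0.03, adjusted p = 0.000738). Fhl2, a LIM protein known to bind SRF, rose by 0.76 ± 0.02 (adjusted p = 7.97e-12).

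The promoters below show where the CArG box stands in front of members that fell. RefSeq promoters of build GRCr8 matched 32 of the 39 measured genes by symbol, and the 250 bases before the start site were searched. The CArG box reads the same in form on both strands, so one pass covers both. An exact box was found in 4 of the 32 (12.5%), Acta1, Actg1, Cnn2 and Srf, against 1.5% of 33360 distinct promoter windows of that length. With up to 1 letter off, 9 of the 32 (28.1%) held one, against 18.7% of all windows. The units differ: a member counted when any window under its symbol held a box, while the background counted distinct windows. All 4 genes with an exact box were called lower in DM, as were 24 of the 28 without one. In the lines below, capitals mark the exact boxes, and for Acta2 the 2 boxes that are 1 letter off. Each window runs 5′ to 3′ on the strand of the gene and ends just before the start site.
Acta2 (GRCr8 chr1:241172504-241172753, minus strand): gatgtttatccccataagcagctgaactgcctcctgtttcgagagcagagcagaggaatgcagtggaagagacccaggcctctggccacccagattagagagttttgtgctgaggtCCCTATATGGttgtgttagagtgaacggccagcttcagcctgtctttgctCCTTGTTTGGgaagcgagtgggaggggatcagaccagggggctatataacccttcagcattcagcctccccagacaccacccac
Acta1 (GRCr8 chr19:68784195-68784444, minus strand): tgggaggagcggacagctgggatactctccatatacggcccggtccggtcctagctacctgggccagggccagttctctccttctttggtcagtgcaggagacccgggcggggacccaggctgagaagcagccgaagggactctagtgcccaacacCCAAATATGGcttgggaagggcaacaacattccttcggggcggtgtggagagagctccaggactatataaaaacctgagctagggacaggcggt
Actg1 (GRCr8 chr10:106120952-106121201, minus strand): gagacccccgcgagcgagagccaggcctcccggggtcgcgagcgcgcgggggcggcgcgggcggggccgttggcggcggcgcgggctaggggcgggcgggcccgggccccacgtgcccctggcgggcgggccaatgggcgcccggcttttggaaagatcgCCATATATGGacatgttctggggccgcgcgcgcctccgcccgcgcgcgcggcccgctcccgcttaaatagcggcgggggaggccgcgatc
Cnn2 (GRCr8 chr7:10370313-10370562, minus strand): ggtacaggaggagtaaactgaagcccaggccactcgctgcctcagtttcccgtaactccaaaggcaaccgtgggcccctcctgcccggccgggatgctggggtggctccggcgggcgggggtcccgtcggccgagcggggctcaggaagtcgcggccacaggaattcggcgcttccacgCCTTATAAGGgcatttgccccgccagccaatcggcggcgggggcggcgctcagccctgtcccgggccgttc
Srf (GRCr8 chr9:21923826-21924075, plus strand): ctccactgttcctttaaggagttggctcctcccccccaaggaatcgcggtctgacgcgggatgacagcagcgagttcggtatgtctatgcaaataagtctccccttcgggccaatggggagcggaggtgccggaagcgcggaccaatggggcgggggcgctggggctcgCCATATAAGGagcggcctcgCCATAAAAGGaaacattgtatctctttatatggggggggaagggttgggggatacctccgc
The Srf window held 2 exact boxes, CCATATAAGG and CCATAAAAGG, whose first bases stand 81 and 61 bases before the start. In Acta1, Actg1 and Cnn2 the single exact box began 94, 90 and 71 bases before it. The Acta2 boxes began at 134 and 84 bases. A match of letters is a description and not a measured binding site.

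Among the smooth muscle genes, 11 of 14 fell and 1 rose (median log2 fold change -0.37). The largest falls were in Actg2, Myh11 and Acta2. Actg2, the gamma smooth muscle actin of gut and bladder wall, had 310.2, 301.4 and 316.1 CPM in DM, against 1115, 1118 and 1127 CPM in control. It was 3.62-fold lower (-1.86 ± 0.02, adjusted p = 8.12e-16). Myh11, the smooth muscle myosin heavy chain, had 168.6, 161.2 and 172.6 CPM in DM, against 474, 482 and 470.5 CPM in control (-1.51 ± 0.03). Acta2, the alpha smooth muscle actin that also marks myofibroblasts, had 2864, 2840 and 2899 CPM in DM, against 6792, 6690 and 6719 CPM in control (-1.23 ± 0.01, adjusted p = 1.96e-15). For each of these genes the spread within a group was a small fraction of the gap between the groups.

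Cnn1, the smooth muscle calponin that inhibits myosin ATPase, had 244, 241 and 245 CPM in DM and 459, 459 and 460.3 CPM in control (-0.92 ± 0.02). The other members that fell did so by less. Tpm1 and Tpm2 encode tropomyosins, which lie along the filament, and had values of -0.59 ± 0.01 and -0.39 ± 0.02. Tagln, the actin-binding protein transgelin (SM22), had 3844, 3886 and 3841 CPM in DM and 5590, 5679 and 5575 CPM in control (-0.54 ± 0.01). Myl9, the regulatory light chain of smooth muscle and non-muscle myosin, and Cald1, caldesmon, had values of -0.35 ± 0.02 and -0.29 ± 0.02. The falls of Lmod1, leiomodin, an actin nucleator (-0.17 ± 0.03), and of Mylk, the kinase that switches myosin on (-0.13 ± 0.02), were the smallest in the group.

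Synpo2 went against the group. It encodes myopodin, an actin-bundling protein of muscle, and had 24.8, 23.8 and 24.4 CPM in DM, against 16.3, 15.1 and 14.4 CPM in control. It rose by 0.68 ± 0.06 on the log2 scale (adjusted p = 3.68e-07). Smtn, smoothelin, had values that overlapped between the groups, at 346, 332 and 363 CPM in DM and 355, 349 and 340.5 CPM in control (-0.01 ± 0.03, adjusted p = 0.898). Des, desmin, the intermediate filament of all muscle, was scarce, with 122, 138 and 121 reads in DM and 130, 128 and 136 reads in control, and did not pass (-0.16 ± 0.12, adjusted p = 0.302).

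Scaling bears on the smaller falls of this group. With library totals alone, which moved the median of all genes by 0.11, Mylk and Lmod1 no longer passed (adjusted p = 0.655 and 0.0566) and Cald1 had a value of -0.17. Smtn was then called higher (0.108, adjusted p = 0.00288). After quantile normalization Tagln had equal means in both groups, and Tpm1, Tpm2, Myl9, Cald1 and Mylk had values between -0.34 and -0.08.

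**Figure D2:**
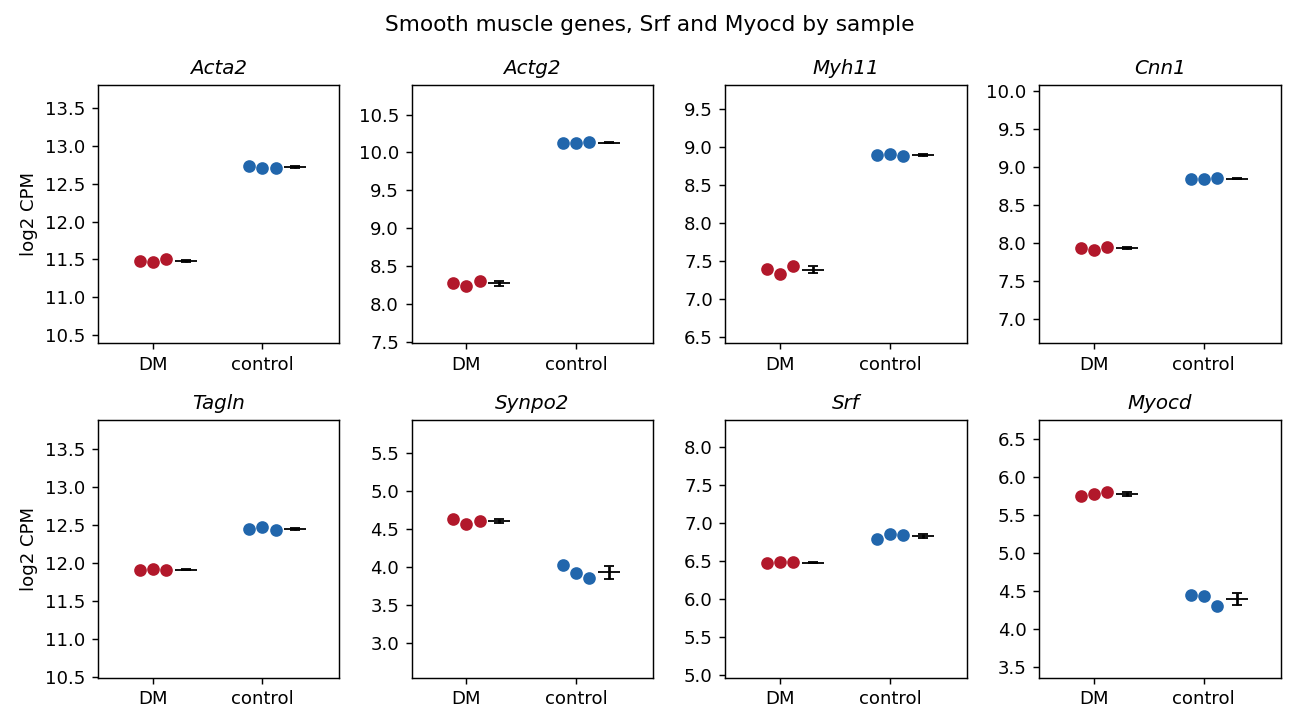
Level (log2 CPM) of 6 smooth muscle genes, Srf and Myocd in each of the 3 DM samples (left, red) and the 3 control samples (right, blue), with the mean and SD beside each group. In the deposited values DM samples lie below control samples in Acta2, Actg2, Myh11, Cnn1, Tagln and Srf, and above them in Synpo2 and Myocd.

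Markers of mural cells (pericytes and vascular smooth muscle) other than the contractile genes did not move one way. Among the 11 with a row, 4 rose (Notch3, Abcc9, Kcnj8 and Aoc3) and 4 fell (Cspg4, Mcam, Rgs5 and Kcnmb1). The median log2 fold change of the 11 was -0.01. The list had a summed level of 1353 to 1403 CPM in DM and of 1823 to 1880 CPM in control. Most of that gap lay in 1 gene, Cspg4, with 8090, 8292 and 9437 reads in DM and 19267, 20988 and 19859 reads in control (-1.33 ± 0.02). Kcnj8, a potassium channel subunit of pericytes, had 210, 248 and 242 reads in DM and 52, 57 and 71 reads in control (1.85 ± 0.14). Kcnmb1, the smooth muscle subunit of a calcium-activated potassium channel, had 53, 83 and 63 reads in DM and 132, 122 and 161 reads in control (-1.18 ± 0.18). Pdgfrb, the growth factor receptor of mural cells and fibroblasts, did not pass, at -0.02 ± 0.02 (adjusted p = 0.411). No measured mural marker was at 0 in a whole group, and Higd1b had 0 reads in the first control sample. These genes were singled out after their values were seen. Markers of other cells were counted in the same comparison. Over all genes 25.5% were called lower and 24.9% higher, and these shares stand beside the mural counts too. Of the sensory neuron markers 9 of 16 fell and 1 rose, with Tac1, a neuropeptide precursor, at 0 reads in each DM sample and at 4, 2 and 1 reads in control. Of the Schwann cell and satellite glia markers 12 of 14 fell and 1 rose (summed level 475 to 519 CPM in DM and 667 to 698 CPM in control), and of the fibroblast markers 5 of 13 fell and 7 rose. Of the endothelial markers 1 of 8 fell and 1 rose (81.2 to 83.2 CPM in DM and 95.4 to 99.2 CPM in control), and of the macrophage markers 4 of 10 fell and 1 rose (12.8 to 14.0 CPM in DM and 13.0 to 14.4 CPM in control). The part of a changed cell mixture in the falls of the contractile genes was not tested.

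Of the 5 striated muscle genes, 4 fell and 1 rose (median log2 fold change -0.43). Myh2, a fast skeletal myosin heavy chain, changed most, with 20.0, 18.1 and 18.6 CPM in DM, against 85.6, 83.8 and 83.4 CPM in control. It was 4.45-fold lower (-2.16 ± 0.04, adjusted p = 2.23e-13), which was the largest change among the 39 genes. Acta1, the skeletal muscle actin, had 12.8, 13.3 and 13.4 CPM in DM, against 38.3, 35.5 and 36.4 CPM in control (-1.48 ± 0.05, adjusted p = 3.59e-11). Neither gene had overlapping groups. Myh2 stands in a family of near-identical skeletal myosin genes and Acta1 among the actins, so how reads were shared with their copies is uncertain.

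Casq1, the calcium store protein calsequestrin, had 111, 133 and 144 reads in DM and 144, 174 and 165 reads in control (-0.43 ± 0.11, adjusted p = 0.00531). Tnnt3, the fast skeletal troponin T, had 254, 256 and 304 reads in DM and 170, 204 and 217 reads in control, and rose 1.27-fold (0.35 ± 0.09, adjusted p = 0.00624). Flnc, the muscle filamin, had 963, 951 and 974 CPM in DM and 1021, 999 and 1002 CPM in control (-0.07 ± 0.02, adjusted p = 0.00624). Its direction depended on the scaling: it was 0.05 with library totals alone (adjusted p = 0.0198) and 0.19 after quantile normalization, and it did not pass under one variance prior for all genes (adjusted p = 0.114).

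Other skeletal muscle markers were scarce. Of 27 listed, 16 had a row, and their summed level was 14.4 to 15.5 CPM in DM and 9.25 to 10.8 CPM in control. The myogenic factors Myod1, Myog, Myf5 and Myf6 and the satellite cell factor Pax7 are not analysed here. Ckm, the muscle creatine kinase, had 1, 0 and 0 reads in DM and 1, 6 and 1 reads in control, and Actn2, the Z-disc actinin, had 1, 0 and 1 reads in DM and 11, 2 and 1 reads in control. Neither Ckm nor Actn2 passed. Of the 16, 4 rose (Neb, Tnni1, Ryr1 and Pygm) and 1 fell (Tnnc1), where 24.9% of all genes rose and 25.5% fell. Neb, which had the most reads of the list, had 172, 193 and 218 reads in DM and 66, 77 and 92 reads in control (1.20 ± 0.13). Tnnc1 had 19, 18 and 27 reads in DM and 37, 50 and 51 reads in control (-1.21 ± 0.24). Of 11 heart muscle markers, 8 had a row. They summed to between 56.4 and 60.3 CPM in DM and to between 13.2 and 17.7 CPM in control. Of the 8, 2 rose (Tnnt2 and Myl7) and 2 fell (Myh6 and Tnni3), beside the same shares over all genes. Myl7 and Tnni3 had at most 14 reads in any sample. Tnnt2, the cardiac troponin T, had the most reads, with 1754, 1687 and 1970 in DM and 306, 293 and 375 in control (2.37 ± 0.08, adjusted p = 4.9e-11). Myh6, the cardiac alpha myosin, had 26, 44 and 58 reads in DM and 81, 90 and 111 reads in control (-1.30 ± 0.24). These markers were picked after their values were seen.

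Of the 18 general cytoskeleton genes, 17 fell and none rose by limma (0 at an unadjusted p under 0.05, 0 with voom weights), and the median log2 fold change was -0.54. The falls ran from -0.11 for Cnn3 to -0.91 for Tmsb10, and Myh9 did not pass. After quantile normalization Cnn3 was called higher (0.05, adjusted p = 0.0359). Actb, the cytoplasmic beta actin often used as a reference gene, had 7491, 7442 and 7194 CPM in DM, against 10883, 10733 and 11153 CPM in control (-0.57 ± 0.02, adjusted p = 2.69e-11). Actg1, the cytoplasmic gamma actin, had a value of -0.63 ± 0.02. The actin genes are near-identical in their coding parts and have processed copies in the genome, so how reads were shared between them is uncertain.

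The members that encode binders of single actin molecules were lower in mRNA, though Tmsb4x did not pass after quantile normalization (0.02, adjusted p = 0.12). Pfn1, profilin, which delivers actin to growing ends, had 354, 327 and 349.7 CPM in DM and 566, 557 and 560 CPM in control (-0.71 ± 0.03). Cfl1, cofilin, which severs filaments, had a value of -0.49 ± 0.02. The thymosins, small peptides that hold actin in reserve, differed in size of change. Tmsb10 had 324, 361 and 336 reads in DM and 573, 582 and 615 reads in control (-0.91 ± 0.07, adjusted p = 1.84e-07), and Tmsb4x had a value of -0.20 ± 0.02. Copies of the thymosin genes make their single values uncertain as well.

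Of the cross-linkers and filament-binding proteins, Flna, filamin A, had 7135, 7194 and 7016 CPM in DM and 10319, 10254 and 10558 CPM in control (-0.54 ± 0.02). Cnn2, a non-muscle calponin, had a value of -0.54 ± 0.02, and its relative Cnn3 one of -0.11 ± 0.02. The LIM proteins Pdlim5 and Pdlim7, which sit on stress fibres and Z-discs, had values of -0.59 ± 0.02 and -0.55 ± 0.03. Tagln2, the non-muscle transgelin, and the tropomyosins Tpm3 and Tpm4 had values of -0.34 ± 0.02, -0.59 ± 0.02 and -0.42 ± 0.02. Vim, vimentin, the intermediate filament of mesenchymal cells, had 6388, 6375 and 6394 CPM in DM and 8031, 8113 and 8148 CPM in control (-0.34 ± 0.01).

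Non-muscle myosin II was covered unevenly. Myh10, its heavy chain IIB, had 1013, 989 and 1023 CPM in DM, against 1807, 1815 and 1769 CPM in control (-0.83 ± 0.02, adjusted p = 4.68e-13). Myl6, the essential light chain, had a value of -0.28 ± 0.02. Myh9, the heavy chain IIA, did not pass (0.06 ± 0.53, adjusted p = 0.94), with 88, 133 and 784 reads in DM and 205, 216 and 146 reads in control. These are 2.95, 4.26 and 23.0 CPM in DM and 7.40, 7.01 and 4.95 CPM in control, far below Myh10. How fully the reads of Myh9 were counted is uncertain and was not tested. The third DM sample stood far above the other samples for this gene, while it lay by over 1.5 on the log2 scale above both other DM samples in only 12 of 12247 genes with a mean log2 CPM of at least 0. Without that sample Myh9 had a value of -0.84 ± 0.20 (adjusted p = 0.00373), and without the third control sample -0.12 ± 0.61.

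With library totals alone Cnn3 had a value of -0.00 (adjusted p = 0.995), and Myl6 and Tmsb4x had values of -0.17 and -0.09. After quantile normalization Vim had equal means, Cnn3 and Tmsb4x had values of 0.05 and 0.02, and Actb, Flna, Myh10, Cfl1, Tagln2, Tpm4 and Myl6 had values between -0.55 and -0.11, all still past the threshold.

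**Figure D3:**
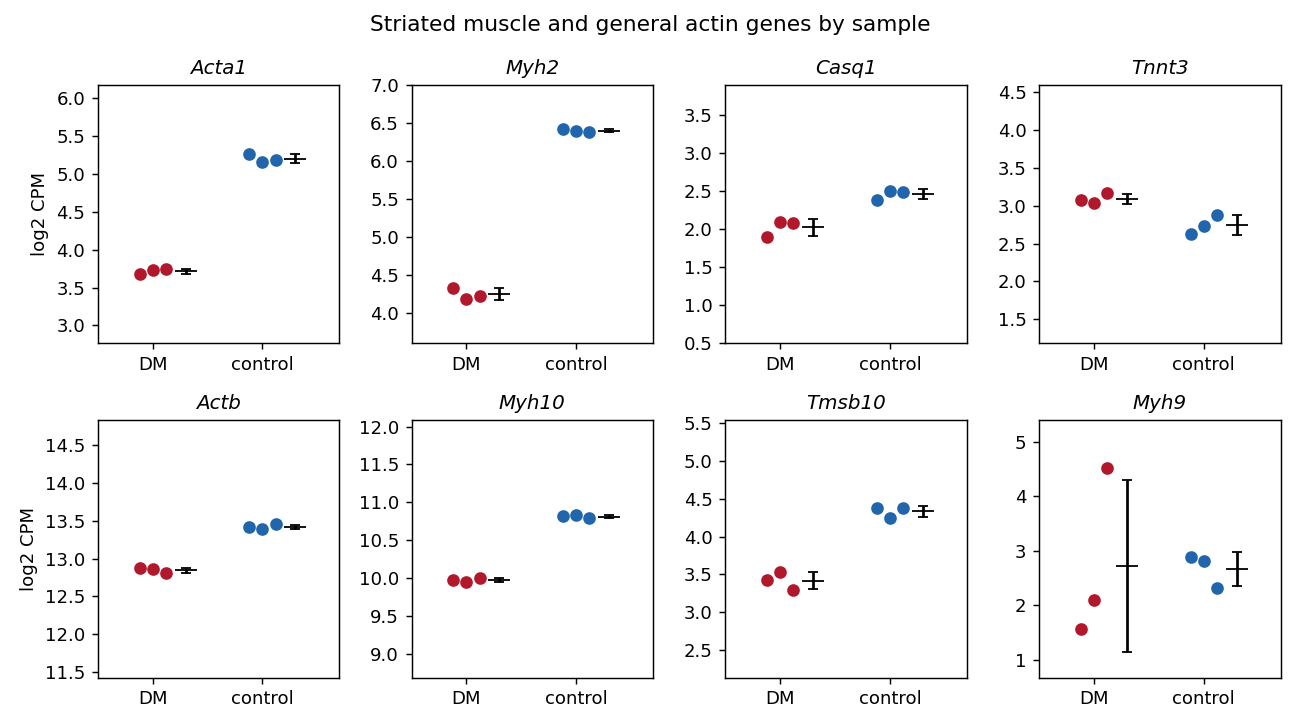
Level (log2 CPM) of 4 striated muscle genes and 4 general cytoskeleton genes in each of the 3 DM samples (left, red) and the 3 control samples (right, blue), with the mean and SD beside each group. The groups do not overlap except in Myh9, where the third DM sample lies at 4.52 and the other DM samples at 1.56 and 2.09.

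Ratios between related genes within one sample are the same whatever factor a whole library is scaled by, but quantile normalization, which adjusts each rank, does move them. Over 15 pairs of the deposited values, the ratio was lower in all 3 DM samples than in any control sample in 9 pairs, higher in 1, and overlapped in 5. Among single genes of the whole table, 57.6% had groups that did not overlap. The share over other pairs of genes was not counted, so the count is not read as a trait of these pairs. With 3 samples against 3, the exact permutation test (two-sided) cannot give a p below 0.1, and the 10 pairs without overlap reached that value (0.15 after adjustment over the 15). No ratio passed the test, and the shifts below are descriptions. The log2 ratio of Acta2 to Actb was -1.39, -1.39 and -1.31 in DM, against -0.68, -0.68 and -0.73 in control. That of Cnn1 to Cnn3 was -1.11, -1.12 and -1.13 in DM, against -0.34, -0.31 and -0.30 in control. After quantile normalization these shifts were -0.81 for Acta2 to Actb and -0.89 for Cnn1 to Cnn3. Tagln against Tagln2 shifted by -0.20 as deposited. After quantile normalization, which gave Tagln equal means in both groups, the shift was 0.20. Tpm1 against Tpm4 shifted by -0.17. Pairs of general genes shifted by as much: Tpm3 to Tpm4 by -0.17, Cnn2 to Cnn3 by -0.43 and Tmsb10 to Tmsb4x by -0.71.

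Within the smooth muscle actins, the log2 ratio of Actg2 to Acta2 shifted by -0.63. Between the cytoplasmic actins, Actg1 and Actb kept overlapping ratios, at -4.75, -4.80 and -4.69 in DM and -4.67, -4.64 and -4.74 in control, a shift of -0.06 that became -0.42 after quantile normalization. Tpm2 to Tpm4, Myl9 to Myl6 and Pdlim7 to Pdlim5 overlapped as well, and the sign of each of these small shifts changed after quantile normalization. Flnc to Flna was the one ratio that was higher in every DM sample, by 0.48 (0.33 after quantile normalization). The shift of Myh11 to Myh9 was -1.56, and -0.69 without the third DM sample. The shift of Myh10 to Myh9, whose groups overlapped, was -0.89, and -0.00 without that sample. Both ratios rest on the few and uneven reads of Myh9, and Myh11 to Myh9 is among the pairs counted as lower.

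**Figure D4:**
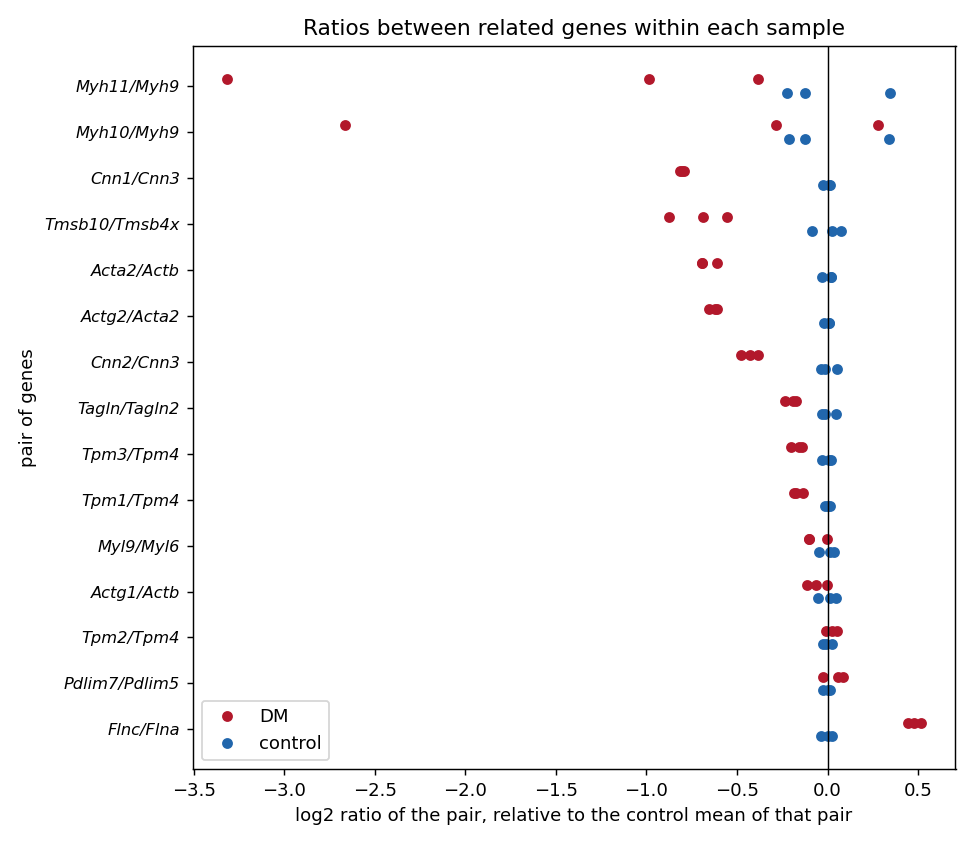
Log2 ratio of 15 pairs of related genes in each of the 3 DM samples (red, above) and the 3 control samples (blue, below), each relative to the control mean of its pair. In the deposited values the DM points lie left of the control points in 9 pairs and right of them in Flnc to Flna, and after quantile normalization 4 pairs, Tagln to Tagln2 among them, change sign.

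Other genes of actin regulation were counted in 5 lists of 86 genes, of which 79 had a row. Of these, 47 fell and 14 rose, and their median log2 fold change was -0.11. Lower calls made up 25.5% of all genes and 51.4% of those with a mean log2 CPM of at least 7. Higher calls made up 24.9% and 29.3% of the same sets. These shares stand beside the counts of each of the 5 lists too. With library totals alone, 26 of the 79 were called higher. Actin crosslinkers and stress fibre proteins had the lowest median of the 5 lists (-0.31), and 16 of 21 fell and 1 rose. With library totals alone 6 of them were called higher, and 5 after quantile normalization. Actn4 and Actn1, the non-muscle actinins, had values of -0.87 ± 0.02 and -0.76 ± 0.02, and Pdlim1 rose by 0.19 ± 0.02. Of the genes of filament turnover, 10 of 18 fell and 4 rose. Coro1c, a coronin, and Wdr1, a cofilin cofactor, had values of -0.63 ± 0.02 and -0.46 ± 0.02, while Svil, supervillin, and Capg, a capping protein, rose by 0.60 ± 0.03 and 0.37 ± 0.03.

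Of the nucleators, which start new filaments, 13 of 23 fell and 4 rose, where 25.5% of all genes fell and 24.9% rose. Cobl fell by 1.89 ± 0.07 on the log2 scale and the formin Diaph3 by 0.52 ± 0.03, and Daam2, another formin, and Wasl, the activator N-WASP, rose by 0.35 ± 0.04 and 0.19 ± 0.04. Among other non-muscle myosin genes, 7 of 11 fell and 2 rose. Myo10 and Myo1c had values of -0.60 ± 0.02 and -0.54 ± 0.02, and Myl12b, a regulatory light chain, and Myo6 rose by 0.49 ± 0.05 and 0.12 ± 0.03. Of 6 SRF partners measured, 3 rose and 1 fell, the one that fell being Elk3, a partner that represses SRF targets (-0.12 ± 0.03), a call that ended with library totals alone (adjusted p = 0.941) and under one variance prior for all genes (adjusted p = 0.0541).

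**Figure D5:**
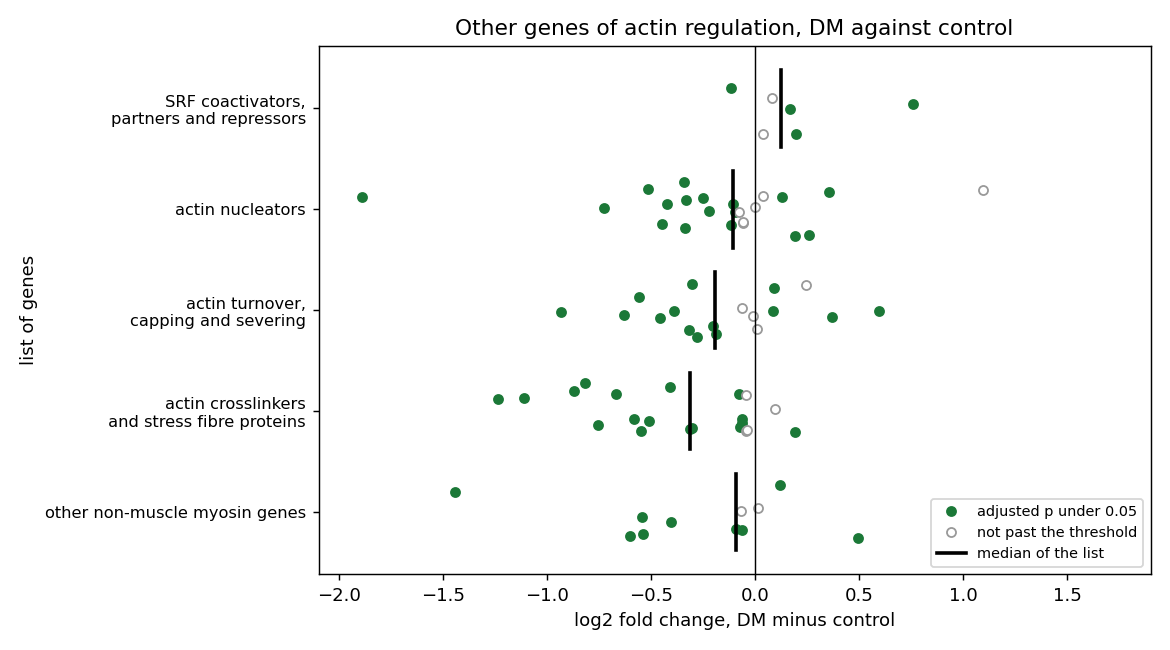
Log2 fold change (DM minus control) of 79 other genes of actin regulation in 5 lists, with filled points for an adjusted p under 0.05, open points for the rest and a bar at the median of each list. The crosslinkers have the lowest median, at -0.31, and the SRF partners the highest, at 0.12.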

How the data were processed

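RNA abundance was deposited by the authors as log2 values in one mRNA table (the lncRNA table was not used here). The submitters' processing notes name the rat build Rnor_6.0 and the tools featureCounts 1.6.0, HISAT2 2.1.0 and fastp 0.19.4. Roles, settings, annotation version and strand are not given in the sources used here. The deposited values are log2 CPM, the log2 of reads plus 0.5 over a scaled library size, and every value of the table came within 0.01 of a whole read. Scaling factors were 1.03 to 1.05 in DM and 0.959 to 0.964 in control, so small changes depend on the scaling. Every row had reads in at least 3 samples. The labels mention fixation with paraformaldehyde, and whether it applied to the sequenced cells is not stated.

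Genes were tested with limma 3.58.1 in R 4.3.3 (group as the term, mean-variance trend, two-sided, Benjamini-Hochberg over all 16551 rows, threshold 0.05). The test was tested on simulated data. Where a symbol had several rows, that with the highest mean was used. Ratios were tested with an exact permutation test in scipy 1.17.1. The members, the gene lists and the tests were chosen with earlier results of these data known. All members are named, and up to 2 genes per direction with the smallest p from each pathway list. One pathway list is not reported here. Promoters were read from RefSeq (GRCr8). Alternatives covered the scaling, variance prior, weights, pseudocount, low-value filters, a replicate block and leaving out each sample. The mean chi-square per gene between samples of the same group was 2.91 to 4.62, more than counting error alone gives. It was computed without a p-value. No sample was therefore taken as a copy of another, which does not show that they came from separate cultures. Same-numbered samples correlated at -0.09, -0.04 and 0.03 in their deviations from the group means, so the numbers were not taken as pairs.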

Additional observations from a re-analysis of the deposited data

How the results depend on the processing

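Of the 36 genes called, 29 kept their direction and their side of the threshold under all 15 alternatives. The exceptions were Mylk and Lmod1 with library totals alone, and Flnc and Cnn3 both with library totals alone and after quantile normalization. The call of Flnc also rested on the variance prior. Tagln, Vim and Tmsb4x were exceptions after quantile normalization only, and stayed lower with library totals alone (-0.43, -0.23 and -0.09). With library totals alone, 5 members were called higher (2 of the smooth muscle and 2 of the striated group) and 29 lower, 26 pathway genes were higher, and 67.6% of all calls were higher (5932, with 2847 lower), against 49.4% as deposited (4126, with 4228 lower). Smtn then had a value of 0.108 and Flnc of 0.0481, and both were called higher. After quantile normalization, 5 members were higher (2 of the striated and 1 of the general group) and 28 lower, with Smtn at 0.0661, Flnc at 0.187, Cnn3 at 0.0459 and Tmsb4x at 0.024. Of genes that had not passed, Smtn changed sign without DM replicate 2 (0.0255) or control replicate 1 (0.0087), within a range of -0.0384 to 0.0255, and Myh9 without DM replicate 3 (-0.8424) or control replicate 3 (-0.1228), within a range of -0.8424 to 0.6391. The count of pairs with a higher ratio was 1 to 2 when single samples were left out, with 2 without DM replicate 2 or control replicate 2. A replicate block changed no call among the members, with 33 still lower and 3 higher. Median-of-ratios scaling, voom weights, 2 added reads and both filters on low values changed none either. At 121 to 138 reads a sample the SE of Des was 0.12, against 0.01 for Acta2. A ratio test of 3 samples against 3 cannot pass 0.05.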
